A study of Homo sapiens with 4 samples.

Results

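The comparison described here set NCCIT cells in which NANOG was silenced against mock-treated NCCIT cells, across all probes of a whole genome expression array. It was chosen by the sample labels alone and held 3 arrays of the NANOG knock-down and 3 of the mock control, which is 6 of the 12 arrays of the study. NCCIT is a human embryonal carcinoma (hEC) line, a pluripotent line of germ cell tumour origin. Both groups grew in high-glucose DMEM with serum. The NANOG knock-down cells received esiRNA against NANOG, a pool of short RNAs cut by RNase III from long double-stranded RNA, together with a transfection reagent. The mock cells received the reagent and no RNA, so an effect of double-stranded RNA as such and an effect of less NANOG cannot be told apart in this comparison. Cells were harvested at day 2.5, and 300 ng of total RNA were amplified for each array. The other 6 arrays came from OCT4 and SOX2 knock-downs of the same line, 3 of each. The replicates were labelled as biological, but all groups share 1 cell line, so the p-values below measure the spread between transfected cultures of that line. In RNA from whole cultures, fewer cells of a type and less RNA per cell cannot be told apart.

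NANOG is a homeodomain transcription factor which, with OCT4 (gene POU5F1) and SOX2, forms the core of the network that keeps pluripotent stem cells undifferentiated. The 3 factors bind many of the same regulatory regions, their own included, and both activate genes of the undifferentiated state and hold down genes of the embryonic lineages. Human pluripotent cells depend in addition on FGF signalling through ERK and on signalling by Nodal and activin, while BMP ligands drive them towards extraembryonic and mesodermal fates.

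The primers that define the esiRNA are shown because they fix which part of the NANOG message was the target. The study lists 2 NANOG esiRNA pools, which came from separate parts of the transcript, and the sources used here do not give which of them was used for each of the 3 arrays. The sequences are the gene-specific parts, 5′ to 3′, without the T7 promoter tail.
NANOG 1 forward: aactggccgaagaatagcaa
NANOG 1 reverse: ctcgctgattaggctccaac
NANOG 2 forward: gactgagctggttgcctcat
NANOG 2 reverse: tctggaaccaggtcttcacc

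Each array carried 47293 probes, of which 23.7% to 24.8% were detected above background in the mock samples and 24.6% to 25.9% in the NANOG knock-downs. The log2 signals of arrays of the same group correlated with Pearson's r of 0.996 to 0.998, and those of different groups among these 6 arrays with 0.979 to 0.987. Values below are background-corrected and normalized log2 intensities, and a difference of 1 on this scale is a 2-fold change. Of the 9 genes taken as markers of hEC identity, 8 had a probe with a name, and these 8 were detected on all 6 arrays. The mock samples thus carried the transcripts of the labelled cell type.

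The NANOG transcript itself stood at 8.17, 8.26 and 8.07 on the mock arrays and at 6.38, 6.21 and 6.29 on the NANOG knock-down arrays. The groups did not overlap, and the knock-down level was 3.66-fold lower (log2 difference -1.87 ± 0.10 SE, adjusted p = 1.1e-09 by limma with Benjamini-Hochberg adjustment). The signal remained detected on all 3 knock-down arrays, so the silencing was incomplete at the RNA level. Near-identical NANOG pseudogenes exist in the human genome, and their part in this probe's signal was not tested.

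Of 11321 probes tested, 557 were called higher and 492 lower in the NANOG knock-down, which is 4.92% and 4.35% of the probes tested. A probe was called when its adjusted p was under 0.05 and its level differed at least 1.5-fold. Without the fold minimum, 1945 probes were higher and 1893 lower, so most differences that passed the test were small. At least 2-fold, 160 probes were higher and 126 lower. The median log2 difference over all probes tested was 0.0038, and the median SE of a called probe was 0.12. Among 1049 called probes, the 3 knock-down values did not overlap the 3 mock values for 1039. The call itself makes such separation likely, and the share over all probes tested is not given here.

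**Figure D1:**
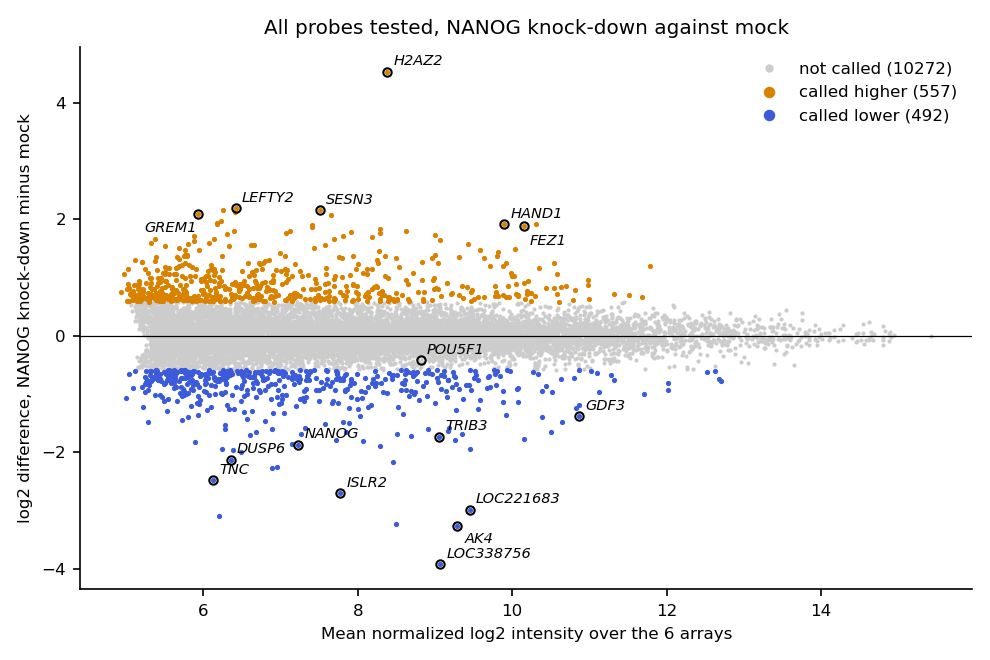
Every probe tested, by its mean normalized log2 intensity over the 6 arrays (x axis) and its log2 difference between NANOG knock-down and mock (y axis), with 557 probes called higher in orange, 492 called lower in blue and the others in grey. The widest falls among probes with a name, LOC338756, AK4 and LOC221683, lie near a mean of 9, and the H2AZ2 probe stands apart at the top, where 2 of its 3 mock arrays read near background.

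Gene symbols were available for 2598 of the probes tested, or 22.9%, standing for 2525 genes. The naming table lists genes that the study had called in its OCT4 or NANOG knock-downs, so the named set was in part chosen on these same arrays. For the NANOG knock-down, 423 rows of genes called higher were held without a gap. Of the genes called lower, 236 rows were held and 178 were missing, which tilts the named set towards rises. Among the named genes, 16.8% were called higher and 12.9% lower, and the counts for gene groups below are to be read against these shares and not against those of all probes. The groups are not independent evidence of their direction. A further 121 probes called higher and 152 called lower have no name here.

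Among genes with a name, the widest falls were found in genes of little known function and in a few with a clear role. The probe for LOC338756, a predicted gene, read 10.88, 11.08 and 11.12 in mock and 7.21, 7.07 and 7.02 after silencing, a 15.2-fold lower level (adjusted p = 7.5e-14, limma). AK4, a mitochondrial adenylate kinase listed under its former symbol AK3, read 10.84, 10.94 and 10.97 against 7.85, 7.61 and 7.48, or 9.68-fold lower (adjusted p = 1.1e-12, limma). LOC221683 was 7.91-fold lower. Only called genes whose groups did not overlap were ranked, so the separation of the arrays was a condition of being named here.

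ISLR2, a leucine-rich repeat membrane protein read by 2 probes that both fell, was 6.53-fold lower. TNC encodes the matrix glycoprotein tenascin C. It read 7.37, 7.35 and 7.38 in mock, was not detected on any knock-down array, and was at least 4.49-fold lower (adjusted p = 1.6e-09, limma). INHBE, an activin subunit gene, was 4.82-fold lower. The transcript of an endogenous retroviral protease, HUMRTVLH3, fell 4.77-fold, and the probe may read several near-identical retroviral copies. The other members of the 15 widest falls were GLIPR1L1, DUSP6, IL17RD, HESX1, LOC94105, THY1, NANOG itself and THBS2, at 3.62-fold to 4.48-fold. THY1, a cell surface antigen of undifferentiated pluripotent cells, and LOC94105, listed as co-transcribed with it, fell by similar factors of 3.70 and 3.84.

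The widest rises among named genes, the H2AZ2 probe apart, were smaller than the widest falls. LEFTY2, listed as EBAF, encodes a secreted inhibitor of Nodal. It read 5.25, 5.48 and 5.25 in mock, where only 1 array detected it, and 7.50, 7.52 and 7.53 after silencing, 4.56-fold higher (adjusted p = 1.3e-09, limma). SESN3, a sestrin that acts in the antioxidant defence and in the control of growth, read 6.41, 6.41 and 6.48 against 8.62, 8.55 and 8.60, or 4.46-fold higher (adjusted p = 9.4e-11, limma). In both genes the 3 knock-down arrays lay close together. Their separation from the mock arrays was again a condition of the ranking.

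LIX1 was 4.44-fold higher, and the entry KIAA1695, an older name of FHOD3, 4.33-fold. GREM1, a secreted BMP antagonist, was not detected on any mock array and was at least 3.25-fold higher (adjusted p = 1.6e-08, limma). PPFIBP2, a liprin scaffold protein, was 4.21-fold higher, and FHOD3, a formin that organises actin, 3.89-fold. FHOD3 thus entered the 15 under both names. HAND1, a basic helix-loop-helix factor of heart and extraembryonic tissue, rose 3.78-fold, as did the secreted Wnt antagonist FRZB and LOC145786. The potassium channel gene KCNK12 rose 3.73-fold, the axon growth gene FEZ1 3.67-fold on the brightest of 3 probes that all rose, and the neuronal leucine-rich repeat gene LRRN2 3.62-fold. CEI completed the 15 widest rises, at 3.80-fold. Of the mock arrays, only 1 detected each of LIX1, KIAA1695, FHOD3 and FRZB.

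One of these 15 was a special case. The probe for the histone variant gene H2AZ2 read 4.24 and 4.36 on mock replicates 1 and 3, 9.74 on mock replicate 2, and 10.83, 10.69 and 10.41 on the knock-down arrays. Its log2 difference of 4.53 had an SE of 0.94, and the 3 mock arrays were split. With the 12 arrays normalized together it read 10.91 to 11.10 in the OCT4 knock-downs and 4.34 to 4.60 in the SOX2 knock-downs. Its difference was 6.34 without mock replicate 2 and 3.61 without mock replicate 1. What split the mock arrays at this probe was not tested.

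Genes associated with pluripotency were called lower more often than higher. Of 40 genes of this list tested, 17 were called lower, or 42.5%, against 12.9% of all named genes, and 2 were called higher. Their median log2 difference was -0.48, against 0.029 over all named genes. HESX1, a homeobox repressor, read 7.04, 7.42 and 7.17 in mock and 5.67, 5.11 and 5.01 after silencing, 3.86-fold lower. Only 1 knock-down array detected HESX1. TERF1, which caps and measures telomeres, read 9.95, 10.01 and 10.02 against 8.39, 8.32 and 8.37, or 3.10-fold lower (adjusted p = 1.5e-10, limma). The zinc finger factor ZSCAN10 was 2.99-fold lower, the Polycomb protein gene PHC1 2.56-fold, and PRDM14, a repressor of lineage genes, 2.34-fold. In none of these genes did the groups overlap.

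The marker genes of hEC identity split by size. GDF3, a TGF-beta family ligand, read 11.57, 11.52 and 11.57 in mock and 10.23, 10.15 and 10.15 after silencing, 2.60-fold lower, and DPPA4 was 2.27-fold lower. DNMT3B, a de novo DNA methyltransferase, was 1.54-fold lower. These 3 of the 8 markers were called. POU5F1 read 9.17, 8.89 and 9.03 against 8.57, 8.55 and 8.69. These groups did not overlap, and the level was 1.34-fold lower (adjusted p = 0.0013, limma), which is under the fold minimum. TDGF1 (current symbol CRIPTO), the Nodal co-receptor, was 1.36-fold lower, and L1TD1 1.13-fold. LIN28A, an RNA-binding protein, differed by 0.13 ± 0.07 SE (adjusted p = 0.17, limma), with a 95% interval of -0.02 to 0.29. For the zinc finger factor SALL4 the difference was -0.01 ± 0.07 SE (adjusted p = 0.94, limma), with an interval of -0.15 to 0.13. SOX2 has no named probe here and was not analysed.

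**Figure D2:**
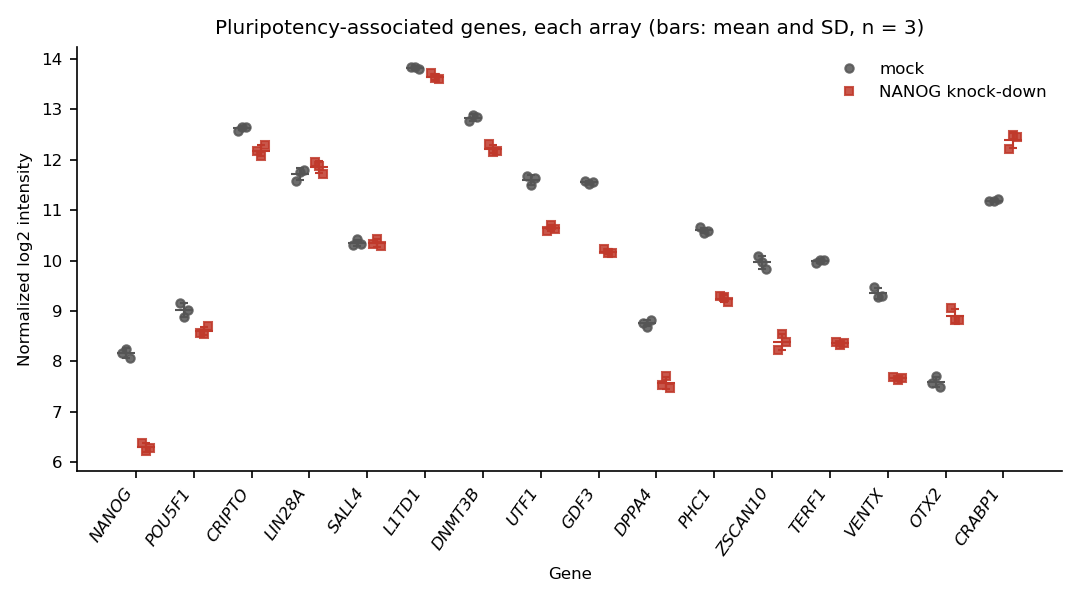
Normalized log2 intensity (y axis) of 15 pluripotency-associated genes and VENTX (x axis) on each mock array (grey circles) and each NANOG knock-down array (red squares), with mean and SD of 3 arrays. NANOG, GDF3, DPPA4, PHC1, ZSCAN10, TERF1 and VENTX separate clearly, POU5F1 separates narrowly, LIN28A and SALL4 overlap, and OTX2 and CRABP1 lie higher after silencing.

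The 2 pluripotency-associated genes called higher were OTX2 and CRABP1. OTX2, a homeobox factor of early epiblast and anterior neural tissue, read 7.58, 7.71 and 7.49 in mock and 9.05, 8.82 and 8.82 after silencing, 2.47-fold higher (adjusted p = 3.2e-08, limma). CRABP1, a cytoplasmic retinoic acid binding protein, was 2.29-fold higher. Both groups of arrays were separate for each gene.

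Components and targets of FGF and ERK signalling formed the second group with many falls. Of 24 genes tested, 10 were called lower, or 41.7%, and 4 higher, with a median of -0.50. DUSP6, the phosphatase that switches off ERK and is itself an ERK target, read 7.37, 7.45 and 7.44 in mock and 5.54, 5.09 and 5.24 after silencing, 4.37-fold lower (adjusted p = 6.6e-09, limma). IL17RD, a membrane inhibitor of FGF receptors, was 3.91-fold lower. The knock-down arrays were all below the mock arrays for both, and 2 of 3 knock-down arrays still detected each of them.

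The immediate early gene IER3 was 2.85-fold lower, the AP-1 subunit gene FOS 2.70-fold, the ETS factor gene ETV5 2.43-fold and the zinc finger factor gene EGR1 1.82-fold. The feedback inhibitors SPRY4 and SPRY1 were 1.69-fold and 1.63-fold lower. Among the ligands, FGF2 read 5.46, 5.70 and 5.99 against 5.36, 4.93 and 5.46, which differed by -0.46 ± 0.18 SE and did not pass (adjusted p = 0.06, limma). FGF19 differed by -0.55 and did not reach 1.5-fold. The called members in the other direction included the receptor gene ERBB2, at 1.80-fold, and the AP-1 subunit gene JUN, which no mock array detected and which was at least 1.5-fold higher. The rises depended on the processing more than the falls, with 1 higher and 7 lower without background correction and 2 and 8 with an offset of 50.

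Amino acid and stress response genes were called in 1 direction only. Of 35 genes tested, 15 were called lower, or 42.9%, none was called higher, and 33 of the 35 estimates were below 0, with a median of -0.56. At an unadjusted p under 0.05 limma gave 30 lower and 2 higher, and the methods' t-test called none higher. When cells lack amino acids or carry misfolded protein, the factor ATF4 raises many of these genes. TRIB3, a pseudokinase, read 9.97, 9.92 and 9.86 in mock and 8.20, 8.23 and 8.13 after silencing, 3.33-fold lower (adjusted p = 1.2e-10, limma). CHAC1, which degrades glutathione, read 11.43, 11.31 and 11.26 against 9.75, 9.67 and 9.63, or 3.14-fold lower (adjusted p = 9.4e-11, limma). Both genes fell on every knock-down array.

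ASNS, asparagine synthetase, was 2.37-fold lower and CTH, which makes cysteine from cystathionine, 2.20-fold on the brighter of 2 probes that both fell. WARS1, the tryptophanyl-tRNA synthetase, was 1.94-fold, the alanine transaminase GPT2 1.93-fold, the mitochondrial serine hydroxymethyltransferase SHMT2 1.75-fold and DDIT3, the stress factor CHOP, 1.67-fold lower. The lipoprotein receptor gene VLDLR was not detected on any knock-down array and was at least 1.81-fold lower. The amino acid transporter SLC7A5 differed by -0.16 (adjusted p = 0.16, limma) and was not called. The members of this list named here as lower also lay below mock in the OCT4 and SOX2 knock-downs. Their log2 differences from mock there were -2.18 and -1.98 for CHAC1, -1.79 and -1.82 for ASNS and -1.20 and -1.22 for TRIB3. SLC7A5 lay above mock there, at 1.65 and 1.71. The mock arrays are shared, and what the knock-downs have in common was not tested. The stress-linked genes SESN2 and PMAIP1, counted under the p53 list, were 2.23-fold and 3.44-fold lower.

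**Figure D3:**
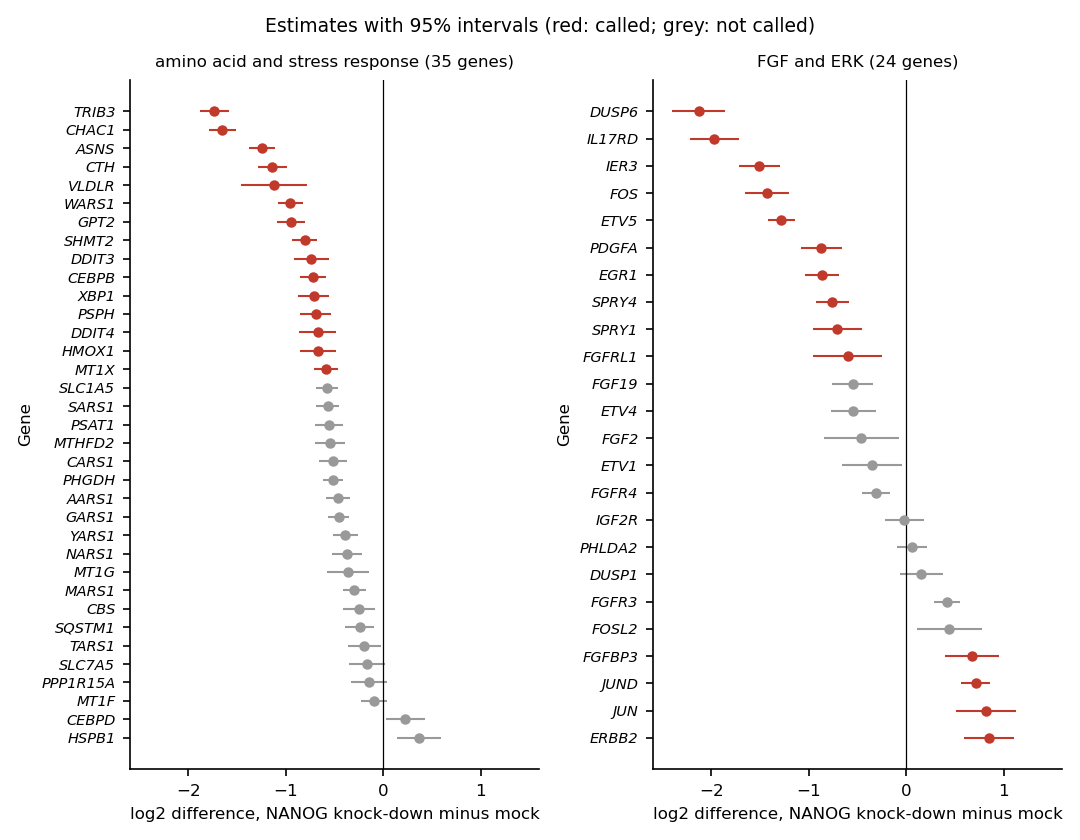
Log2 difference between NANOG knock-down and mock (x axis) with its 95% interval for every gene tested in the amino acid and stress response list (left, 35 genes) and the FGF and ERK list (right, 24 genes), with called genes in red. On the left 33 of 35 estimates are below 0, and on the right 10 genes are called lower and 4 higher.

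Promoter stretches of the called stress genes are shown because these members moved together. Promoters of 300 bases, from 250 bases before to 50 bases after the start, were taken from RefSeq on GRCh38.p14 and searched on both strands for TGATGNAA, the core letters of the ATF4 and C/EBP response element. Of the 15 members called lower, 11 matched a promoter and 2 of these held the letters, against 7 of 16 matched members that were not called and 4.46% of 27305 genes. With no fold minimum 29 of the 35 members tested passed as lower, so these counts do not set genes that fell against genes that did not. Capitals mark the match, which lies in the stretch chr7:97872443-97872502 on the minus strand for ASNS and chr15:40953236-40953295 on the plus strand for CHAC1, both upstream of the start. For ASNS the letters run as searched along the printed strand, and for CHAC1 they are the reverse complement.
ASNS: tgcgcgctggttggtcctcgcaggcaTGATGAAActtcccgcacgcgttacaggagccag
CHAC1: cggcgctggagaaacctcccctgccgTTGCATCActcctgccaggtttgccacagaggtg

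Homeobox and related LIM-only genes were called higher more often than lower. Of 84 in the list 28 had a name and 23 were tested. Of these 23, 12 were called higher, or 52.2%, and 3 lower, against 16.8% and 12.9% of all named genes. The median of the 23 was 0.62, or 0.32 where genes undetected in 1 group entered at their bound. Among genes that the study had called in its OCT4 knock-down, 8 of 19 were higher, or 42.1%, and 3 lower. The naming through the NANOG knock-down thus raised the share called higher. IRX2, an Iroquois factor, read 9.07, 9.19 and 9.05 in mock and 10.59, 10.49 and 10.54 after silencing, 2.70-fold higher (adjusted p = 4.6e-10, limma), and IRX1 was 2.09-fold higher. LMO1, a LIM-only cofactor, was 3.17-fold higher, with 2 of 3 mock arrays detecting it. PKNOX2, a TALE homeobox factor, was not detected in mock and was at least 1.77-fold higher, and DLX5, also undetected in mock, at least 1.24-fold. In the other direction VENTX, a homeobox gene expressed in pluripotent cells, read 9.48, 9.27 and 9.30 against 7.69, 7.62 and 7.68, or 3.22-fold lower. The groups did not overlap in any of these genes.

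In the Nodal, activin and TGF-beta list, 6 of 14 genes tested were called higher, or 42.9%, and 3 lower. Beside LEFTY2, the activin antagonist gene FST was 2.36-fold higher on the brighter of 2 probes that both rose, and PMEPA1, a feedback inhibitor of SMAD signalling, 2.18-fold. The ligand genes INHBE and GDF3 fell as given above. LEFTY1, the paralogue next to LEFTY2, read 6.27, 6.06 and 6.15 in mock and 5.44, 5.45 and 5.74 after silencing, which was 1.54-fold lower and just above the fold minimum. The paralogues thus moved in opposite directions. LEFTY1 dropped below the fold minimum without mock replicate 1, without NANOG knock-down replicate 1 or without NANOG knock-down replicate 2, at log2 differences of -0.58 to -0.56.

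In the BMP list 4 of 12 genes were called higher and 4 lower. The rises were HAND1, GREM1, the inhibitory SMAD gene SMAD6 at 2.57-fold and the helix-loop-helix inhibitor ID2 at 1.81-fold. The falls included the receptor gene BMPR1A at 1.71-fold, GATA3 at 1.54-fold and the homeobox target MSX2 at 1.56-fold. Without mock replicate 2 or NANOG knock-down replicate 2, MSX2 missed the fold minimum, at -0.57 and -0.55. Without background correction, and likewise with an offset of 50, 4 members were called higher and 1 lower.

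Wnt pathway genes rose more often than they fell. Of 18 tested, 9 were called higher and 1 lower, with a median of 0.63. Beside FRZB, the receptor gene FZD3 read 6.40, 6.50 and 6.65 in mock and 7.64, 7.65 and 7.64 after silencing, 2.19-fold higher. The cytoplasmic transducer DVL1 was 2.18-fold, WLS, which carries Wnt proteins to the surface, 2.17-fold, the ligand gene WNT5A 2.12-fold and the secreted antagonist SFRP1 1.96-fold higher. Only 1 mock array detected WNT5A. Only SFRP2, a related antagonist, was called lower, reading 11.43, 11.39 and 11.35 against 9.89, 9.90 and 9.94, or 2.79-fold (adjusted p = 9.4e-11, limma). Secreted antagonists of the same family were thus among both the rises and the falls.

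Retinoid genes and other signalling receptors made up a mixed list, with 10 of 23 called higher and 4 lower. CRABP2, the second cytoplasmic retinoic acid binding protein, read 5.99, 6.26 and 6.33 in mock and 7.90, 8.01 and 7.95 after silencing, 3.39-fold higher (adjusted p = 7.2e-09, limma). CYP26A1, which breaks down retinoic acid, was 2.37-fold and the retinal reductase gene DHRS3 2.36-fold higher. STRA6, the membrane receptor for vitamin A uptake, read 9.06, 8.93 and 8.91 against 7.15, 7.10 and 7.23, or 3.50-fold lower. The Hedgehog receptor gene PTCH1 was 2.57-fold higher and the ephrin receptor gene EPHA1 3.05-fold lower. Uptake and breakdown genes of the retinoid pathway thus differed in direction.

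Lineage genes differed between lists, and only the mesoderm list rose far more often than it fell. For trophectoderm and amnion, 4 of 11 genes tested were higher and 3 lower. TFAP2A, an AP-2 factor, read 5.82, 5.95 and 5.77 in mock and 7.50, 7.44 and 7.26 after silencing, 2.93-fold higher, while KRT18, a keratin of simple epithelia, read 12.27, 12.12 and 12.23 against 11.23, 11.23 and 11.14, or 2.01-fold lower. The summed linear intensity of the 11 genes was 9521 to 10495 in mock and 7248 to 7807 after silencing, and 2 of the 11 were undetected in mock. Such a sum follows its brightest members, KRT18 among them, and not the number of genes that moved.

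For mesoderm and mesenchyme, 7 of 18 tested were higher, or 38.9%, and 1 lower, with a median of 0.36. A further 14 members with a name did not pass the detection filter and were not tested. The summed intensity of the 18 was 1597 to 1694 in mock and 2031 to 2089 after silencing. For endoderm, 2 of 8 were higher and 1 lower. For neural and neuronal genes, 6 of 31 were higher and 5 lower, shares of 19.4% and 16.1% that are close to those of all named genes. Their summed intensity was 37673 to 38597 in mock and 35784 to 36507 after silencing, although their median log2 difference was 0.24. Beside FEZ1, the guidance receptor gene NRP2 and the tubulin regulator gene STMN2 were undetected in mock and at least 1.98-fold and 1.86-fold higher, and the progenitor filament gene NES was 2.11-fold higher. The phosphatase receptor gene PTPRZ1 was 1.75-fold lower.

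Genes of the extracellular matrix rose more often than they fell, with 15 of 41 called higher, or 36.6%, and 6 lower. The heparan sulphate proteoglycan gene SDC2 was 2.95-fold higher and COL18A1, a basement membrane collagen, 2.78-fold, and the collagen IV gene COL4A2 was 2.04-fold higher. Beside TNC and THBS2, the integrin genes ITGA9 and ITGB1 were 2.46-fold and 2.11-fold lower and the fibronectin gene FN1 1.69-fold. In the list of epithelial junction and keratin genes, none of 14 was called higher by limma, with 2 higher at an unadjusted p under 0.05, and 4 were called lower. EPCAM, an epithelial adhesion molecule of pluripotent cells, was 2.17-fold and the tight junction protein gene F11R 1.99-fold lower.

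**Figure D4:**
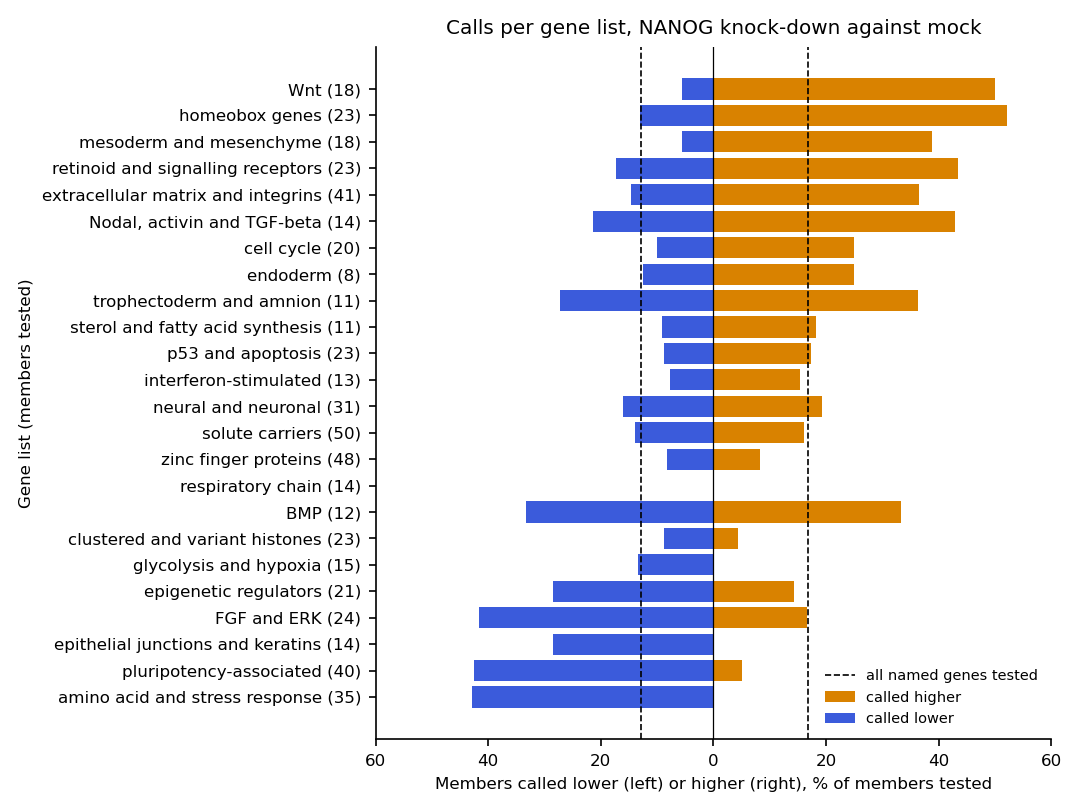
Share of the members tested of each gene list (y axis, number tested in parentheses) that were called lower, to the left in blue, or higher, to the right in orange (x axis, % of members tested). Dashed lines mark the shares over all named genes, 12.9% lower and 16.8% higher, and among lists with over 10 members tested the amino acid, pluripotency and FGF lists extend furthest to the left and the Wnt and homeobox lists furthest to the right.

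Of 20 cell cycle genes tested, 5 were called higher, or 25%, and 2 lower, or 10%. The shares over all named genes were 16.8% and 12.9%. The median of the 20 was -0.02, and only 21 of the 86 genes of this list had a name. The rises included 2 inhibitors of cyclin-dependent kinases. CDKN1C read 7.16, 7.05 and 6.89 in mock and 8.64, 8.95 and 8.83 after silencing, 3.42-fold higher (adjusted p = 3.1e-09, limma), and CDKN1A was 1.95-fold higher. The antiproliferative gene BTG2 was 2.26-fold higher, with only 1 mock array detecting it. The cyclin gene CCNA1 and the mitotic kinesin gene KIF23 were 1.90-fold and 1.80-fold lower. In the p53 and apoptosis list 4 of 23 were called higher and 2 lower, among them TP53INP1, undetected in mock and at least 2.64-fold higher, and the BH3-only gene BIK at 2.14-fold.

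Among epigenetic regulators 6 of 21 were called lower and 3 higher. The chromatin helicase gene HELLS was 1.83-fold lower, the Polycomb methyltransferase gene EZH2 differed by -0.56 and did not reach 1.5-fold, and PHC2, the paralogue of PHC1, was 1.78-fold higher. Interferon-stimulated genes bear on the response to double-stranded RNA, which only the knock-down cells received. Only 13 of the 68 genes of this list had a name. Of these 13, all tested, 2 were called higher, or 15.4%, and 1 lower, against 16.8% and 12.9% of all named genes. Among genes that the study had called in its OCT4 knock-down, none of 11 was higher and 1 was lower. Both rises were thus in genes named through the study's calls in the NANOG knock-down, so they are not independent evidence. IFIT1 was undetected in mock and at least 1.39-fold higher, ISG20 was 2.36-fold higher, and IFITM1 was 1.86-fold lower. The OCT4 and SOX2 knock-down cells also received esiRNA, and no array of theirs detected IFIT1. Their log2 differences from mock were 0.16 and 0.25 for ISG20 and -2.09 and -1.95 for IFITM1. An effect of double-stranded RNA as such was not tested. The summed intensity of the 13 genes was 3480 to 3704 in mock and 3081 to 3185 after silencing, although their median log2 difference was 0.14.

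Housekeeping groups and large gene families are set here against the shares over all named genes, 16.8% called higher and 12.9% called lower. None of 14 respiratory chain genes and none of 4 ribosomal protein genes was called by limma, and their medians were -0.14 and -0.18. At an unadjusted p under 0.05, 7 respiratory chain genes were lower and 1 higher, and 2 ribosomal protein genes were lower. The methods' t-test called none of them. Of 15 glycolysis and hypoxia genes limma called none higher and 2 lower, with 4 higher at an unadjusted p under 0.05. Of 50 solute carriers 8 were higher and 7 lower, or 16% and 14%, close to the shares of all named genes. The creatine transporter gene SLC6A8 was 2.68-fold higher and the aromatic amino acid transporter gene SLC16A10 2.72-fold lower. Only 1 knock-down array detected SLC16A10. Of 48 zinc finger protein genes 4 were called in each direction, and of 23 histone genes 2 were lower and 1, the H2AZ2 probe, higher. The histone median was -0.27, and 13 of the 23 passed an adjusted p under 0.05 as lower with no fold minimum, so that their falls were small.

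The NANOG knock-down was then set directly against the OCT4 and SOX2 knock-downs, in a fit over 12 arrays that does not pass through the mock samples. Of 12374 probes tested, 1160 were higher and 1486 lower than in the OCT4 knock-down, or 9.37% and 12%, and 1190 were higher and 1449 lower than in the SOX2 knock-down, or 9.62% and 11.7%. Both contrasts use the same 3 NANOG knock-down arrays. NANOG itself was higher in its own knock-down than in either of the others, where no array detected it, at least 2.55-fold against the OCT4 knock-down and at least 2.33-fold against the SOX2 knock-down. POU5F1 was detected on 1 of 3 OCT4 knock-down arrays, where the log2 difference was 3.76, and on no SOX2 knock-down array, against which it was at least 11.2-fold higher.

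Several genes lay on opposite sides of mock. FEZ1 read 11.20 to 11.30 in the NANOG knock-down, 9.31 to 9.46 in mock, and 7.45 to 7.59 and 7.43 to 7.50 in the OCT4 and SOX2 knock-downs, a difference of 3.75 from the OCT4 and 3.79 from the SOX2 knock-down (adjusted p = 4.1e-17 and 2.5e-17, limma). OTX2 was higher than in those knock-downs by 2.58 and 2.76, IRX1 by 1.85 and 1.95, FST by 2.05 and 2.02 and CYP26A1 by 2.60 and 2.67. TFAP2A was higher by 2.62 than in the OCT4 knock-down, where 1 of 3 arrays detected it, and at least 5.01-fold higher than in the SOX2 knock-down, where none did. Each of these 6 genes was above mock in the NANOG knock-down, and its level in the other knock-downs was below mock, with log2 differences from mock in the OCT4 knock-down between -0.80 for IRX1 and -1.89 for FEZ1. The mock arrays are shared by these comparisons.

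The reverse pattern was found for IER3, FN1, KRT18 and EPCAM. IER3 read 6.94 to 7.22 in the NANOG knock-down, 8.42 to 8.64 in mock, 11.20 to 11.47 in the OCT4 knock-down and 11.48 to 11.72 in the SOX2 knock-down, so that it was lower by 4.30 than in the OCT4 knock-down (log2 difference -4.30, adjusted p = 1.2e-16, limma). For FN1 the difference was -3.48 from the OCT4 and -3.52 from the SOX2 knock-down, for KRT18 -2.73 and -2.69, and for EPCAM -2.19 and -1.93. TNC, which no NANOG knock-down array detected, was at least 7.88-fold lower than in the OCT4 and at least 8.41-fold lower than in the SOX2 knock-down. The groups did not overlap in any of these genes.

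Other genes lay on the same side of mock in all knock-downs. LEFTY2 was lower in the NANOG knock-down than in the OCT4 knock-down by 2.82 (log2 difference -2.82) and GREM1 by 2.06 (log2 difference -2.06), though both were above mock. DUSP6 was lower than in the OCT4 knock-down (-1.53) and the SOX2 knock-down (-1.32), and ETV5 by less (-0.80 and -0.78). SPRY4 differed by 0.05 and -0.06 and passed in neither contrast (adjusted p = 0.59 and 0.56, limma). TRIB3 differed by -0.49 and -0.47, under the fold minimum. For the 15 widest rises against mock, 8 were called higher and 6 lower than in the OCT4 knock-down, and for the 15 widest falls 8 higher and 4 lower. These 30 were chosen with the NANOG arrays and hold FHOD3 under both its names, so the counts are a description.

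**Figure D5:**
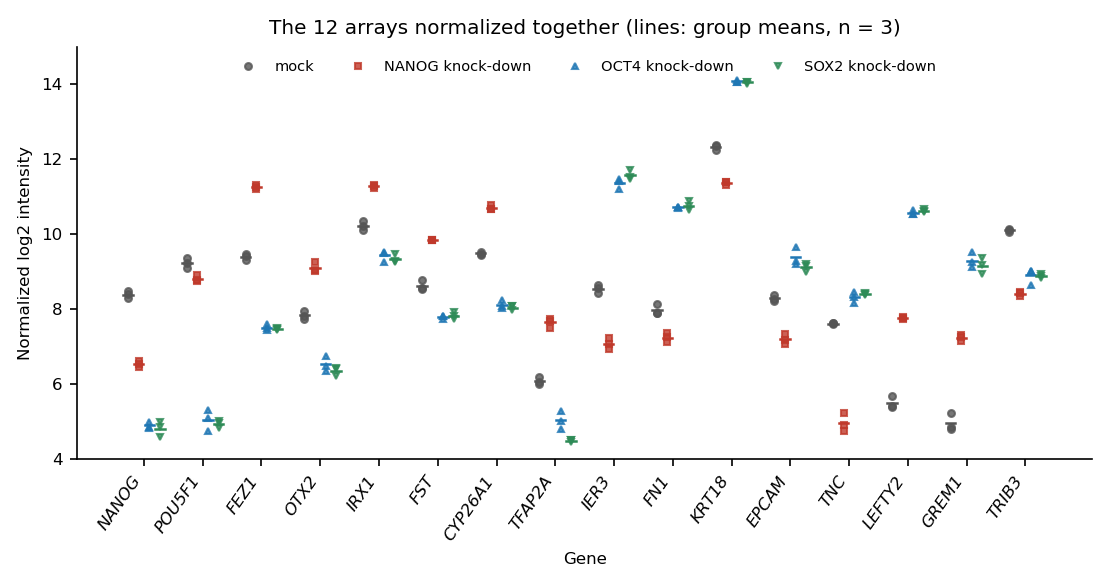
Normalized log2 intensity (y axis) of 16 genes (x axis) on all 12 arrays normalized together, with the 3 arrays and the mean of each group. FEZ1, OTX2, IRX1, FST, CYP26A1 and TFAP2A are highest in the NANOG knock-down, at 11.20 to 11.30 for FEZ1, and IER3, FN1, KRT18, EPCAM and TNC are lowest there, TNC undetected.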

How the data were processed

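Total RNA of NCCIT cells was hybridised in biological triplicate to Illumina whole genome BeadChips, and the authors read the arrays with BeadStudio 1.0. The deposited tables hold an average signal intensity per probe, not background-subtracted (lowest value 55.2), and a detection score from 0 to 1, where 1 means detected. A table of the authors' mean intensity per group served only as an alternative. Precision is limited by 3 arrays per group, and chip positions were not given in the files.

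Intensities were background-corrected by normexp, with background mean and spread estimated from the detection scores, an offset of 16 was added, and the 6 arrays were quantile-normalized on the log2 scale in limma 3.58.1 (R 4.3.3). Fold changes of dim probes are understated by the offset. Probes with detection of at least 0.99 on all 3 arrays of at least 1 group were kept, without 4 bacterial control probes. Group differences were tested two-sided with lmFit and eBayes (trend), with Benjamini-Hochberg adjustment over all probes tested. Where a group detected a probe on no array, the fold is given as "at least", against the higher of the probe's own value and the lowest detected signal of each array. The contrasts with the OCT4 and SOX2 knock-downs came from the 12 arrays normalized and fitted together. The test was checked on simulated data.

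Symbols came by probe identifier from the study's supplementary gene table, of which only some sheets were held, and were updated by accession through RefSeq (2481 of 2985 probes, a further 102 by symbol). Its ratios and p-values were not used. The brightest probe over the 6 arrays stood for a gene, except that FHOD3 also entered under its older name KIAA1695. Probes of EFNA1, EPHB2, DPPA3 and HLTF differed in call. The genes named are NANOG and POU5F1, the 15 widest rises and falls among called probes whose groups did not overlap, up to 8 called members of a list by size and up to 4 that were not called. A few members below these ranks were added after their values were seen. Members and lists were chosen with earlier results of these data known. Promoters came from RefSeq GRCh38.p14.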

Additional observations from a re-analysis of the deposited data

How the results depend on the processing

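Leaving out 1 array at a time gave 496 to 635 probes higher and 419 to 557 lower. Counts moved with settings that act on dim probes. Without background correction 179 probes were higher and 175 lower, with an offset of 50, 301 and 265, and with detection required on all 6 arrays 366 were higher. With no fold minimum 1945 and 1893 passed, and at 2-fold 160 and 126. Against the OCT4 knock-down, 470 were higher and 756 lower without background correction and 746 higher with an offset of 50. Against the SOX2 knock-down these were 476, 803 and 744. Median scaling, cyclic loess, no filter, all 12 arrays and the methods' t-test with Benjamini-Hochberg adjustment kept the counts against mock within 1.5 times.

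Of 123 genes followed, 113 of them called, none changed call or sign with the 12 arrays fitted together, cyclic loess or no filter, and 21 lost the call without background correction, 7 with an offset of 50 and 4 under the methods' t-test. SALL4, not called, ranged from -0.050 to 0.027 with 1 array left out, and changed sign at 0.027 without mock replicate 2, 0.0016 without NANOG knock-down replicate 1 and 0.026 without NANOG knock-down replicate 3. The correlations of same-numbered deviations were -0.30, -0.12 and 0.092, and those of differently numbered arrays ran from -0.21 to 0.30. Deviations of 3 arrays from their own mean are not independent, so these values cannot settle whether arrays were paired. With the replicate block 558 probes were higher and 492 lower. No chip was given in the files, so a chip block was not run. In the authors' table of means, 111 of these genes had a value above 0 in both groups, none of which changed direction, and 59 moved by more than 1 SD. Without background correction the members called higher fell to 7 homeobox, 5 Wnt, 8 matrix and 5 retinoid and receptor genes.

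With names from the OCT4 sheets alone, a choice made after seeing the data, 12.8% of 2313 genes were higher and 11.8% lower. The lists then gave 17 of 40 lower for pluripotency, 13 of 33 for amino acids and 8 of 21 for FGF. Of 19 homeobox genes 8 were higher, and of 11 interferon-stimulated genes none was higher. The study called its OCT4 knock-down against the same mock arrays, so these names were still chosen in part on the data compared here. Over all probes tested the shares were 4.92% higher and 4.35% lower.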
